A study of Mus musculus with 2 samples.

Results

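Chromatin remodelers and histone modifying enzymes were examined in mouse urogenital sinus mesenchyme (UGM) cells given testosterone and estradiol. The members were chosen by gene symbol: every gene of the Kmt, Setd, Kdm, Hdac, Dnmt, Tet, Smarc, Arid and Chd families that at least 1 probe set of the array named alone. The symbol rule found 84 genes among the 18193 named genes. Of these, 75 were measured, meaning that at least 1 array reached a log2 value of 5 (intensity 32), the floor used here. The other 9 members, Arid3a, Arid3b, Arid5a, Chd5, Chd7, Dnmt3l, Hdac9, Kdm4d and Tet3, lay between 2.14 and 4.67 on both arrays, and no difference is given for them.

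The study addressed which genes testosterone and estrogen induce in this mesenchyme, the stroma that surrounds the epithelium from which the prostate buds. Cells of male C57BL/6 mice at day 16 were kept for 72 h in RPMI medium with 5 µg/ml of the antibiotic Plasmocin and 5% serum stripped of steroids with charcoal. The untreated group received nothing further, and the T+E2 group received testosterone (12 nM) and estradiol-17 beta (120 pM). Each group was 1 array. The titles carry a shorter time than the protocols, and the descriptions give untreated cells as confluent and T+E2 cells as nearly so, whereas the growth protocol gives 80% for both. The labels do not say how many animals were pooled or whether the cells were primary or a line.

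With 1 array per group there was no replicate check, no p-value was computed, and every difference is T+E2 minus untreated between these 2 arrays. The 18 hybridization spike probe sets differed by -0.25 to 0.09 (log2). The 3′ to 5′ signal ratio, a sign of RNA integrity, was 2.28 for Gapdh untreated and 2.16 with T+E2, and 2.96 and 2.83 for beta-actin. Of 12 mesenchyme markers 9 were measured, while Thy1 and the posterior Hox genes Hoxa13 and Hoxd13 were below the floor. Of 10 epithelial markers 2 were measured, Cdh1 (5.37 in untreated cells, 7.57 with T+E2) and Esrp2 (11.88 and 12.52), and Epcam and 5 keratin genes were below the floor. The summed signal of the epithelial markers was 11.91 untreated and 12.58 with T+E2 (log2), and that of the mesenchyme markers 16.997 and 17.21. Of the endothelial markers 1 of 5 (Tek) was measured, of the leukocyte markers 0 of 5, and of the neural and glial markers 1 of 3 (S100b). The part of other cells, of cell density and of RNA integrity in the differences below was not tested. In bulk RNA, fewer cells of a type and less RNA per cell cannot be told apart.

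DNA in the nucleus is wound on histones, and the families studied here set how tightly. Kmt and Setd enzymes mostly add methyl groups to histone lysines and Kdm enzymes mostly remove them. Hdac enzymes remove acetyl groups, which generally goes with lower transcription. Dnmt enzymes methylate cytosine and Tet enzymes oxidise that mark. Most Smarc proteins, with Arid1 and Arid2 proteins, build the SWI/SNF (BAF and PBAF) complexes and Chd proteins form another group of ATP-driven remodelers. Steroid hormone receptors recruit many of these proteins as coactivators or corepressors.

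Most members were somewhat higher with T+E2, by less than 2-fold, and the histone deacetylases were the main class on the other side. Of 75 measured members, 56 were above 0 and 19 below, against 55.8% and 43.7% of all 10267 measured genes. The members' median log2 difference was 0.40 (interquartile range -0.003 to 0.58), beside 0.07 (-0.32 to 0.45) over all measured genes. At 1.5-fold or more, 19 members were higher (25.3%), against 17.1% of all measured genes, and 4 were lower (5.33%), against 14.1%. At 2-fold or more, 3 members were higher (4.0%), against 4.96% of all genes, and 0 were lower, against 4.01%. On the higher side the share at 2-fold therefore lay near that of all genes. The 3 members past 2-fold were Arid1a, Hdac4 and Kmt2a. Members are long genes. With the trend of the difference with gene length removed (described further on), 6 (8.0%) were at least 1.5-fold higher, against 11.5% of all genes. On the lower side 5 (6.67%) then passed 1.5-fold, against 14.4%. The members' median was then 0.12, beside 0.01 for all genes.

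**Figure D1:**
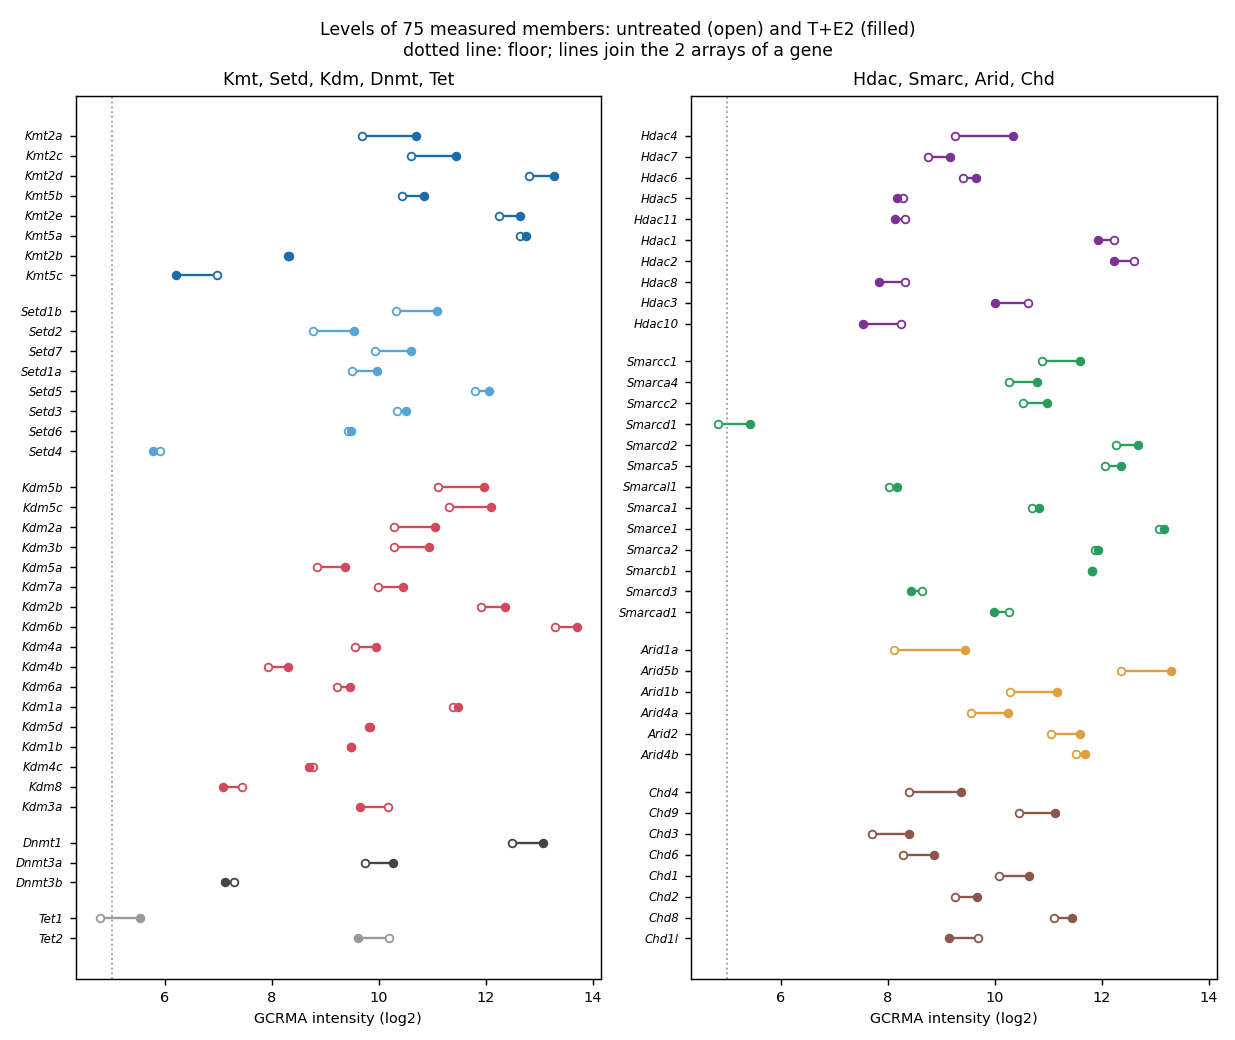
Log2 GCRMA intensity (x axis) of each of the 75 measured members (y axis, grouped by class), with open circles for untreated cells, filled circles for T+E2 and a dotted line at the floor of 5. Filled circles lie to the right of open ones for 56 members, and for the class I deacetylases Hdac1, Hdac2, Hdac3 and Hdac8 they lie to the left. There is 1 array per group, so no error bars are drawn.

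Promoter windows, from 250 bases before to 50 after a RefSeq start site (GRCm38.p6), were held for 65 of the 84 members, in 91 windows. They are shown for a pair of the highest and a pair of the lowest members with a single window, because the hormones given act through receptors that bind DNA. Capitals mark every match, on either strand, to the motifs searched: the palindromic androgen and glucocorticoid response element, a single arm of it, AGAACA, the palindromic estrogen response element, the AP-1 site TGANTCA, the CRE TGACGTCA, the GC box GGGCGG and the palindromic NRF1 site. The arm lies within the full element.
Kmt2a, chr9:44881240-44881539, minus strand: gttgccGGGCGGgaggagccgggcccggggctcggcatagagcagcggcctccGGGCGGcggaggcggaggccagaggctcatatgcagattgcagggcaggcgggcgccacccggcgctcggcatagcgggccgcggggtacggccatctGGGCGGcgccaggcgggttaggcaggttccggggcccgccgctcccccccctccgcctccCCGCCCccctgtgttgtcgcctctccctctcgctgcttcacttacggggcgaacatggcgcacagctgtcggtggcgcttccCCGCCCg
Hdac4, chr1:92180292-92180591, minus strand: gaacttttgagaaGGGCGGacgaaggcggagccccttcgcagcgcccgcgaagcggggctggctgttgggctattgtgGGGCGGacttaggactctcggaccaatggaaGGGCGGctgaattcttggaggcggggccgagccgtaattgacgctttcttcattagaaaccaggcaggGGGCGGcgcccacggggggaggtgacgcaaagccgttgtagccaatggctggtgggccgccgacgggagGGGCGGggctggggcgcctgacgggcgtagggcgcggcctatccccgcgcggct
Kmt5c, chr7:4739877-4740176, plus strand: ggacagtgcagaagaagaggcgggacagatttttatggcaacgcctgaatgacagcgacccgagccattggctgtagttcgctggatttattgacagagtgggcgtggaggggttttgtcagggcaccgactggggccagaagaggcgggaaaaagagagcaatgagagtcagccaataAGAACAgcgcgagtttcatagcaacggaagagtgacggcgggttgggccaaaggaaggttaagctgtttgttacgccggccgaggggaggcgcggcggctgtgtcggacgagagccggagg
Tet2, chr3:133544341-133544640, minus strand: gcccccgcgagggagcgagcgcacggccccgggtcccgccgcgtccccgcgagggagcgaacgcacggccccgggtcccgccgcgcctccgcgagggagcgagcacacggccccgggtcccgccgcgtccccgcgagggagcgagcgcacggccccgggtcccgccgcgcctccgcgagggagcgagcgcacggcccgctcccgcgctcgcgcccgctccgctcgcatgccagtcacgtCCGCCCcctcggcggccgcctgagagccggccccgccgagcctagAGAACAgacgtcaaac
In these windows Hdac4 and Kmt2a each held 5 GC boxes and no other motif searched. Kmt5c held 1 match to the arm, and Tet2 held 1 match to the arm and 1 GC box. Over all 91 member windows 63 (69.2%) held a GC box, against 64.3% of the 10704 windows of measured genes and 35.7% of all 32851 windows. The arm was in 14 (15.4%), against 11.8% and 19.0%, and the AP-1 site in 8 (8.79%), against 4.68% and 7.81%. The NRF1 site was in 2 (2.20%, both of Dnmt1), against 2.20% and 0.971%. None of the member windows held the full androgen element, the estrogen element or the CRE. Of the windows of measured genes 0.00934%, 0% and 3.16% held them, and of all windows 0.00913%, 0.0700% and 1.79%. A match is a run of letters, not a bound site.

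Among the writers, the Kmt and Setd genes, 13 of 16 measured members were above 0. The 3 highest, Kmt2a, Kmt2c and Setd1b, encode large histone H3 lysine 4 methyltransferases. Kmt2a, which encodes MLL1, had an intensity of 818 untreated and 1648 with T+E2, a 2.01-fold difference (log2 1.01). Kmt2c, which encodes a methyltransferase that marks enhancers, was at 1553 and 2778 (1.79-fold). Setd1b, a catalytic subunit of the COMPASS complex, was at 1268 and 2171 (1.71-fold). All measured probe sets of these 3 genes lay on the higher side, 2 for Kmt2a, 3 for Kmt2c and 2 for Setd1b.

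The other genes of that group differed less. Kmt2d stood at 0.47 (log2), Setd1a at 0.46 and Kmt2b at -0.01. The median over the 6 Kmt2a to Kmt2d and Setd1 genes was 0.62, and 0.40 with the gene length trend removed. Setd2, the main histone H3 lysine 36 methyltransferase, which adds the final methyl group, was at 436 and 744 (1.70-fold). Setd7, a lysine monomethyltransferase, was at 970 and 1546 (1.59-fold), and Setd5 at 0.26. Setd3, which methylates actin, stood at 0.17, Setd6 at 0.05 and Setd4, near the floor on both arrays, at -0.13. The other measured probe set of Setd4, at 29.7 and 94.2, stood on the opposite side. It was below the floor in untreated cells, so that its difference is at least 1.56.

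The histone H4 lysine 20 methyltransferases did not move together. Kmt5c, which makes the trimethyl mark of heterochromatin, was the lowest of all members, at 126 untreated and 73.8 with T+E2 (1.70-fold lower, log2 -0.77). Kmt5b, which makes the same kind of marks, stood at 0.42, with 3 of 5 measured probe sets higher and 2 lower, and the monomethyltransferase gene Kmt5a at 0.11. Kmt2e, an MLL relative whose catalytic activity is in doubt, stood at 0.39 with all 5 probe sets higher.

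Of 17 measured lysine demethylase genes, 13 were above 0 and 4 below, with a class median of 0.40. The highest were members of the Kdm5 family, which removes methyl groups from histone H3 lysine 4. Kdm5b was at 2200 untreated and 3983 with T+E2 (1.81-fold), and Kdm5c, an X-linked gene, at 2539 and 4357 (1.72-fold). Its Y-linked relative Kdm5d was level, at 903 and 913. Kdm5a stood at 0.51. Kdm5c was higher in all 4 of its measured probe sets, while 1 of the 3 measured probe sets of Kdm5b, at 56.4 and 9.64, was lower.

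Kdm2a, a CpG island-binding demethylase of histone H3 lysine 36, was at 1237 and 2113 (1.71-fold), and its relative Kdm2b stood at 0.44. The histone H3 lysine 9 demethylase genes Kdm3a and Kdm3b lay on opposite sides. Kdm3b was at 1237 and 1962 (1.59-fold higher), and Kdm3a at 1144 and 804 (1.42-fold lower, log2 -0.51). Each of these 2 differences rests on 1 measured probe set. Kdm3a was the lowest demethylase, followed by Kdm8 (-0.35), Kdm4c (-0.09) and Kdm1b (-0.01).

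The histone H3 lysine 27 demethylase genes Kdm6a and Kdm6b stood at 0.24 and 0.42. Kdm7a stood at 0.47, Kdm4a at 0.40 and Kdm4b at 0.38. Kdm1a, which encodes LSD1, a partner of the androgen receptor, was at 2653 and 2838 (0.10), with both measured probe sets higher by similar amounts.

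Histone deacetylase genes were on balance lower with T+E2. Of 10 measured Hdac genes 7 were below 0 and 3 above, with a median of -0.25, whereas 53 of the other 65 measured members were above 0, with a median of 0.42. No test of this difference between classes was made, since there are no replicate arrays. Without the deacetylases, 18 of 65 members (27.7%) were at least 1.5-fold higher, against 17.1% of all measured genes, and 2 (3.08%) lower, against 14.1%. With the gene length trend removed these became 6 of 65 higher, against 11.5% of all genes, and 4 lower, against 14.4%.

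The class I enzymes, the nuclear deacetylases of the NuRD, Sin3 and NCoR corepressor complexes together with Hdac8, were all lower. Hdac1 was at 4770 untreated and 3882 with T+E2 (log2 -0.30). Hdac2 was at 6249 and 4784 (-0.39), with a second measured probe set also at -0.39. Hdac3, the deacetylase of the NCoR complex, was at 1568 and 1023 (1.53-fold lower, -0.62), and Hdac8 at 320 and 229 (-0.48). The values of Hdac1, Hdac3 and Hdac8 each rest on 1 probe set. The differences of Hdac2, Hdac3 and Hdac8 were below the lower quartile of all measured genes (-0.32), and that of Hdac1 was just above it.

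Outside class I the direction was mixed. Hdac4, a signal-responsive class IIa enzyme that shuttles between nucleus and cytoplasm, was at 614 and 1293 (2.10-fold higher, log2 1.07). A second measured probe set of Hdac4 stood at -0.14, so its difference rests on the brighter one. The other measured class IIa genes, Hdac5 and Hdac7, stood at -0.11 and 0.41. The class IIb gene Hdac10, a polyamine deacetylase, was at 302 and 186 (1.62-fold lower, -0.70), while Hdac6, the tubulin deacetylase, stood at 0.25. Hdac11, the class IV enzyme, stood at -0.19.

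**Figure D2:**
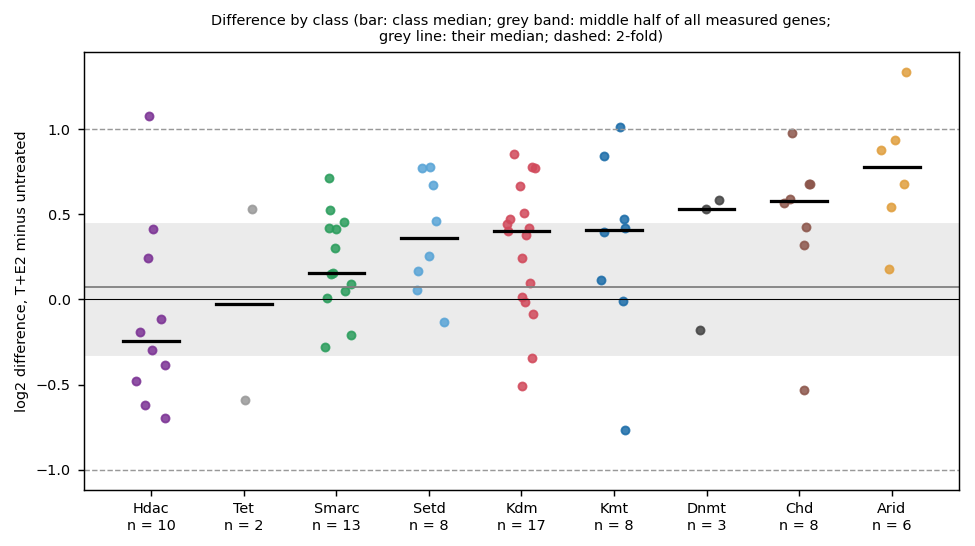
Log2 difference, T+E2 minus untreated (y axis), of every measured member by class (x axis, ordered by class median, n measured genes each). Bars are class medians, from -0.25 for Hdac to 0.78 for Arid, the grey band is the interquartile range of all measured genes (-0.32 to 0.45) and dashed lines mark 2-fold.

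Genes of the DNA methylation machinery split within both families. Dnmt1, the maintenance methyltransferase, was at 5715 and 8549 (log2 0.58, just under 1.5-fold), with all 3 measured probe sets higher. The de novo enzyme gene Dnmt3a was at 851 and 1227 (0.53), with all 5 measured probe sets higher, from 0.21 to 2.17. Dnmt3b, near 7 on the log2 scale on both arrays, stood at -0.18.

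Tet2 was at 1171 untreated and 778 with T+E2 (1.51-fold lower, log2 -0.59). Its second probe set was at 202 and 37.3 (-2.43), on the same side. Tet1 reached the floor with T+E2 only, at 27.4 and 46.2, so that its difference is at least 0.53. The Tet median over 2 genes, -0.03, therefore describes neither of them.

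Among the remodelers, 24 of 27 measured genes were above 0 and 3 below. Their median was 0.42, and 0.14 with the gene length trend removed. The Arid genes had the highest class median, 0.78, and all 6 measured members were above 0. Arid1a, which encodes the DNA-binding subunit of the BAF complex, showed the largest difference of all members, at 276 untreated and 698 with T+E2 (2.52-fold, log2 1.34). Its second probe set stood at 1.43. Arid1b, the paralog that replaces Arid1a in the complex, was at 1248 and 2288 (1.83-fold), so both alternative subunits were higher.

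Arid5b, a partner of the demethylase PHF2, was at 5272 and 10074 (1.91-fold), with 3 measured probe sets from 0.93 to 1.38. The probe set at 1.38 was below the floor in untreated cells, so that value is a lower bound. Arid4a, a subunit of Sin3 corepressor complexes, was at 756 and 1211 (1.60-fold), while its paralog Arid4b stood at 0.18, the lowest of the class. Arid4b was at -0.27 once the gene length trend was removed, and its second measured probe set stood at -0.05. Arid2, the PBAF subunit, stood at 0.54 with all 3 probe sets higher.

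The Smarc genes, most of which encode ATPases and core subunits of SWI/SNF and ISWI remodelers, differed less than the Arid genes, with 11 of 13 above 0 and a median of 0.16. Smarcc1, a core scaffold subunit, was the 1 member at 1.5-fold or more, at 1892 and 3107 (1.64-fold), with all 3 measured probe sets higher. Its paralog Smarcc2 stood at 0.46. Of the alternative ATPase genes, Smarca4 (BRG1) stood at 0.52 and Smarca2 (BRM) at 0.05, although a second Smarca2 probe set stood at 1.28.

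Other core subunits differed little or gave mixed readings. Smarcb1 was at 3595 and 3609, but its second bright probe set, at 2816 and 2175, stood at -0.37. Smarce1 stood at 0.09, and its second bright probe set, at 2931 and 2022, at -0.54. Smarcd2 stood at 0.41. Smarcd1 reached the floor only with T+E2, at 28.4 and 42.7, so that its difference is at least 0.42. Smarcd3 stood at -0.21. The ISWI ATPase genes Smarca5 and Smarca1 stood at 0.30 and 0.15. Smarcad1, a remodeler of replicated chromatin and repair sites, had the lowest value at -0.28, and the mean of its probe sets stood at 0.35. Its second measured probe set, at 19.4 and 38.2, was below the floor in untreated cells, so that its difference is at least 0.26. Smarcal1, a replication fork enzyme, stood at 0.16. Over the 12 members that encode BAF or PBAF subunits, 11 were above 0. The median was 0.44, and 0.21 with the gene length trend removed.

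Of 8 measured Chd genes 7 were above 0, with a median of 0.58. Chd4, the main ATPase of the NuRD complex, was at 338 untreated and 664 with T+E2 (1.96-fold, log2 0.97), with all 3 probe sets higher. Chd3, the alternative NuRD ATPase, was at 210 and 336 (1.60-fold). The NuRD deacetylase genes Hdac1 and Hdac2 thus lay on the other side from its ATPase genes.

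Chd9 was at 1401 and 2244 (1.60-fold), but its second measured probe set, at 122 and 30.4, stood at -1.93 and the gene's call rests on the brighter one. The dimmer one was below the floor with T+E2, so -1.93 is a bound and its fall is at least that large. Chd6 was at 310 and 466 (0.59 on the log2 scale, at the 1.5-fold line). Chd1, which binds trimethylated histone H3 lysine 4, stood at 0.57 with all 4 probe sets higher, Chd2 at 0.42 and Chd8 at 0.32. Chd1l, a PARP-activated repair remodeler, was the lowest, at 821 and 569 (1.44-fold lower, -0.53).

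The further probe sets, which played no part in the gene values, came from the same 2 RNA samples. Of 70 further measured probe sets of members, 53 were above 0, against 4222 of the 7407 further probe sets of all genes. The medians were 0.50 and 0.09. The trend with gene length was not removed from these differences. Of these 70, 14 (20%) were at least 2-fold higher, against 8.11% over all genes, and 5 (7.14%) at least 2-fold lower, against 7.53%. Among the 42 members with more than 1 measured probe set, 25 (59.5%) had every probe set in 1 direction, against 69.4% over all genes, and the median SD between probe sets was 0.26, against 0.22. For 33 members a single measured probe set gave the value. Beside the members named above for opposed probe sets, dim probe sets of Smarca5 (97.9 and 40.8), Chd8 (75.8 and 20.9) and Kdm6a (74.0 and 24.1) stood at -1.26, -1.24 and -1.21, where the gene values were above 0. Those of Chd8 and Kdm6a were below the floor with T+E2, so -1.24 and -1.21 are bounds and the falls are at least that large. Brighter opposed probe sets of Setd5 (370 and 320), Setd6 (460 and 434) and Kdm5a (383 and 362) stood at -0.21, -0.08 and -0.08. Probe sets of Kmt5a (2798 and 2783) and Hdac11 (35.0 and 35.1) opposed their gene values by little, at -0.008 and 0.004.

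**Figure D3:**
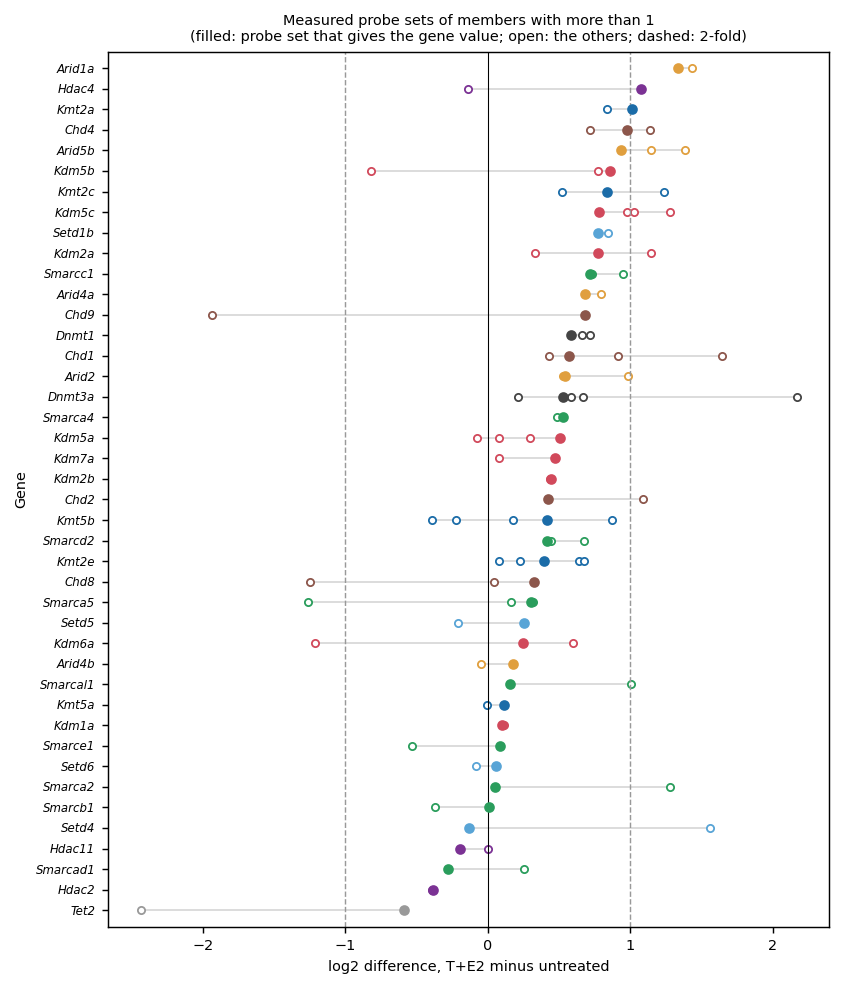
Log2 difference (x axis) of each measured probe set of the 42 members with more than 1 (y axis, ordered by the gene value). Filled circles give the gene value and open circles the others. Low outlying probe sets appear for Tet2 (-2.43) and Chd9 (-1.93, a bound set by the floor), and a high one for Dnmt3a (2.17).

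The members are long genes, and the difference between these arrays grew with genomic span, the length of a gene from first to last base in RefSeq. The median span was 52.7 kb for measured members and 24.5 kb for all measured genes. Across the 75 members log10 span and the difference correlated at 0.44 (Pearson), and across all 10237 measured genes with a span at 0.36. These are correlations across genes of the same 2 arrays, and genes are not independent replicates.

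Within the longest quartile of measured genes (57.3 kb and over), 14 of 37 members (37.8%) were at least 1.5-fold higher, against 36.4% of all genes there, with medians of 0.52 and 0.42. In the next quartile (24.5 to 57.3 kb) 5 of 23 (21.7%) were, against 14.4%, with medians of 0.30 and 0.12. In the quartile from 10.6 to 24.5 kb the medians were 0.09 over 11 members and -0.02 over all genes. In the shortest quartile they were -0.32 over 4 members and -0.16. The members' median thus lay above that of all genes in the 3 longer quartiles and below it in the shortest.

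With the trend over all genes subtracted, the members' median was 0.12, beside 0.01 for all genes. Then 47 of 75 members (62.7%) were above 0, against 51.3% of all genes, 6 (8.0%) were at least 1.5-fold higher, against 11.5%, and 5 (6.67%) lower, against 14.4%. The 6 were Arid1a (1.02), Chd4 (0.88), Setd1b (0.75), Kmt2a (0.69), Chd3 (0.65) and Kdm5c (0.61). The 5 lower were Hdac8 (-1.02), Tet2 (-0.92), Chd1l (-0.72), Kdm3a (-0.66) and Kmt5c (-0.62). Hdac8 spans 221 kb, where the trend lies above 0, so that removing it moved the gene farther below 0.

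The class order was partly that of span. Arid genes had the longest median span (127 kb), and their median of 0.78 became 0.29. Chd genes (63.8 kb) went from 0.58 to 0.12 and Kmt genes (46.7 kb) from 0.41 to 0.17. Setd genes (36.0 kb) stayed at 0.32, from 0.36. Hdac genes (27.1 kb) stayed at -0.26, from -0.25, and the 4 class I genes were at -0.50, from -0.43. What makes the difference follow span was not tested.

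**Figure D4:**
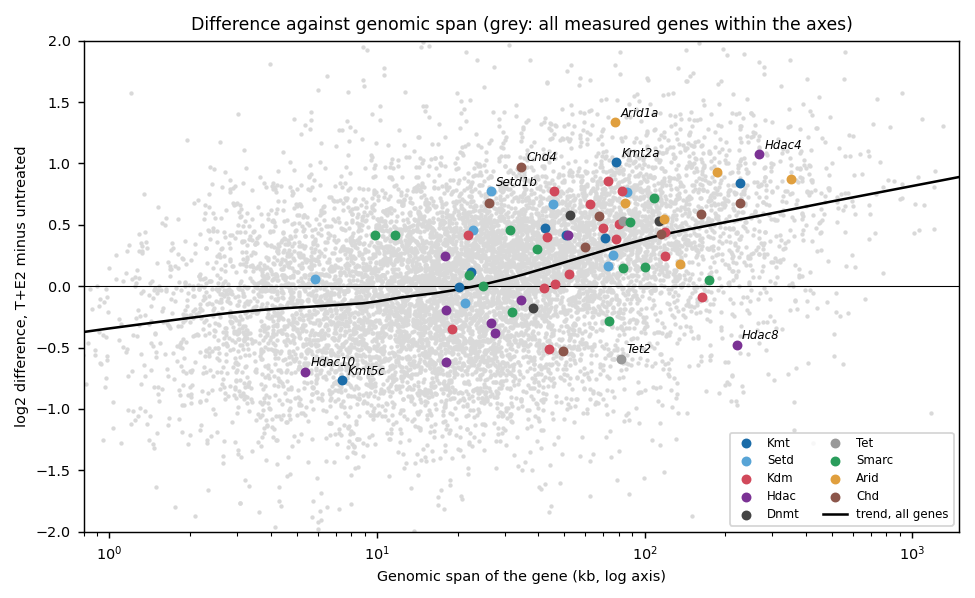
Log2 difference (y axis) against genomic span in kb (x axis, log scale) for all measured genes within the axes (grey) and the 75 members (coloured by class), with the lowess trend over all genes in black. Most members lie at long spans where the trend is above 0, Arid1a (1.34) lies well above it, and Hdac8 (-0.48) and Tet2 (-0.59) well below it.

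A list of other chromatin regulators, of proteins that work with the members or on the same marks, gave a smaller shift. Of 97 such genes on the array 92 were measured, with a median of 0.18. Of these, 17 (18.5%) were at least 1.5-fold higher, near the 17.1% of all measured genes, and 9 (9.78%) lower, against 14.1%. The 4 highest were Rsf1 (1.09), an ISWI partner, Mta3 (1.08), a NuRD subunit, the demethylase gene Phf8 (1.01) and Rcor1 (0.98), the LSD1 corepressor. A second measured probe set of Mta3, at 395 and 411, stood at 0.06. The 4 lowest were Dpy30 (-0.94), a core subunit of the MLL and Setd1 complexes, the Polycomb gene Pcgf6 (-0.94), the deacetylase gene Sirt7 (-0.93) and Kat5 (-0.92), the TIP60 acetyltransferase.

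By group, the 10 acetyltransferase genes had a median of 0.64. At 1.5-fold or more, 5 (50%) were higher, against 17.1% of all measured genes, and 1 (10%) lower, against 14.1%. With the span trend removed the median was 0.23, with 2 higher, against 11.5% of all genes, and 1 lower, against 14.4%. The group included Ep300 (0.94, or 0.67 with the trend removed) and Crebbp (0.88, or 0.43), the general coactivators of steroid receptors. It also included Kat7 (0.95, or 0.83), whose second measured probe set, at 78.3 and 50.5, stood at -0.63. The 13 INO80, SRCAP, TIP60 and ISWI genes had a median of 0.46 and a median span of 99.1 kb, and the median was 0.07 with the span trend removed. The 17 measured Polycomb genes had a median of 0.06, with Ezh2 at 0.00 and Eed at -0.60, and the 9 other BAF subunit genes 0.02. With the span trend removed the median of the whole list was 0.06. Then 9 of 92 genes were at least 1.5-fold higher, against 11.5% of all genes, and 8 lower, against 14.4%. Ep300, Crebbp, Kat7, Ezh2 and Eed were named after their values were seen.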

How the data were processed

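GCRMA, named in the submitters' processing notes, made the deposited intensity values, which are on a linear scale, in a version not given in the sources used here. GCRMA corrects background by probe sequence, normalizes the arrays to each other and summarises each probe set, so that absent probe sets gather near the lowest values. The values ran from 3.75 to 71889 over 45101 probe sets, of which 42.9% (untreated) and 42.1% (T+E2) reached the floor.

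The log2 was taken and a floor of 5 set on both arrays before differences. A difference with 1 array below the floor is therefore a bound. Probe sets were named from the platform annotation: 34945 named 1 gene, 932 several and 9160 were not listed, beside 64 controls. The probe set with the highest mean log2 gave the gene's value. All 84 members keep their symbol in RefSeq (GRCm38.p6), which gave genomic spans and promoters and no other coordinates. The span trend was a lowess fit (fraction 0.3, statsmodels 0.14.6). Counting at 2-fold, without a span trend and with a trend added and removed, was tested on simulated data. There the noise was set by the spikes and mean levels were held above the floor. Counting at 1.5-fold was not tested that way.

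Members at least 1.5-fold different, class extremes and members at the floor on 1 array were described with their values, with 4 other regulators in each direction. The members and lists were chosen with earlier results of these data known. The number of arrays limits the precision.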

Additional observations from a re-analysis of the deposited data

Results flagged for a closer look

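The probe set that names both Kdm6b and the gene 1700064E03Rik was left out of the gene values, because it does not name a single gene. It carried a clear signal, at 3228 untreated and 4629 with T+E2, a log2 difference of 0.52. Of 3 probe sets that name Kdm6b alone, 1 reached the floor, at 9975 and 13324, and it stood at 0.42. Which of the 2 genes gives the shared signal was not tested.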

How the results depend on the processing

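No paired analysis was possible because each group is 1 array. Alternatives were floors of 4, 6 and none, the mean of a gene's probe sets, no _x_at or _s_at probe sets, centring on all genes, a shift by the spikes, span trend removal and updated symbols. With the span trend removed the members' median was 0.12, and class medians were 0.17 (Kmt), 0.062 (Kdm), 0.12 (Dnmt), -0.36 (Tet), 0.29 (Arid) and 0.12 (Chd), with 6 members at least 1.5-fold higher, 1 at least 2-fold higher and 1 lower. With the mean of probe sets, which takes in dim ones, 1 member was 2-fold higher and 2 lower, 7 were 1.5-fold lower, the medians were 0.084 (Kdm) and -1.51 (Tet), and Chd9 (-1.33), Kdm5b (-0.28) and Smarcad1 (0.35) changed sign. It also ended the 1.5-fold calls of Arid5b (0.57), Kdm3b (0.50), Setd7 (0.34), Hdac4 (0.31), Kdm5c (0.22), Kdm2a (0.063) and Hdac10 (-0.18). The spike shift left 2 members 1.5-fold lower. The Tet median turned to 0.013 at a floor of 4 and without a floor, and was -0.59 at a floor of 6, settings that alter whether Tet1 and Tet3, near the floor, are counted. It turned to 0.021 with the spike shift, which subtracts the spikes' median of -0.050 from every difference. Without a floor the Dnmt median was 0.27. The cause of the other changes was not tested. The Hdac median stayed below 0 and those of Kmt, Setd, Kdm, Dnmt, Smarc, Arid and Chd above 0 under all 9 alternatives. Of the 32 members tracked singly, 18 moved by 0.2242 or more, the typical SD among the probe sets of 1 gene, with the span trend removed. That removal ended 15 of 23 calls at 1.5-fold and turned Arid4b to -0.27. With the mean of probe sets 10 of 28 moved that far, and 9 of 23 calls ended or turned. No member moved that far under the other 7 alternatives, though the spike shift ended the calls of Hdac3 (-0.57) and Tet2 (-0.54) and centring that of Chd6 (0.51).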
